A study of Mus musculus with 24 samples.

Results

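Untreated dendritic cells labelled knockout (KO) for IRE1α were compared with untreated wild-type (WT) dendritic cells, across all genes of the deposited count table. The comparison used the 4 KO and the 4 WT untreated samples, 8 of the 24 samples in the series. The cells were mouse dendritic cells grown from bone marrow. In the other 16 samples either genotype received zymosan or lipopolysaccharide (LPS). Those samples served to share the estimate of spread, for counts of a few genes and for comparisons of the conditions further below. The labels give the genotype only as WT or KO for IRE1. They name no allele, no Cre driver, no strain, age or sex of the mice and no growth factor, and leave it unstated whether a replicate is its own mouse or culture. The p-values reflect only how these samples vary, which may be partly technical.

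IRE1α, encoded by Ern1, is a sensor in the membrane of the endoplasmic reticulum (ER). When unfolded proteins accumulate, or constitutively in some dendritic cells, its RNase excises a short intron from Xbp1 mRNA, and the spliced mRNA encodes XBP1s, a transcription factor for genes of protein entry, folding, glycosylation, degradation and export in the ER. The same RNase can cut other mRNAs at the ER, a process called regulated IRE1-dependent decay. The ER has other sensors beside it: ATF6, itself a membrane-held transcription factor, and PERK, a kinase that slows translation and favours that of ATF4, which drives genes of amino acid supply and the factor CHOP (Ddit3).

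The 8 libraries held 37970225 to 46927434 counts, and 14188 of 38887 genes had enough counts to be tested in the edgeR model of all 24 samples. Levels are CPM (counts scaled to a common library total) with totals scaled by the trimmed mean of M values, and differences are log2 values, KO-labelled over WT, ± standard error (SE) with n = 4 per group. Genes with a Benjamini-Hochberg adjusted p under 0.05 are named called. In KO-labelled cells 611 genes were called higher (4.31% of those tested) and 800 lower (5.64%), together 9.95%. By more than 2-fold, 45 were higher (0.317%) and 110 lower (0.775%). The median difference of all tested genes was 0.004. Within each genotype the samples formed pairs, with replicate 1 closest to 2 and replicate 3 closest to 4. The chi-square per gene, near 1 for counting noise, was 3.17 to 6.29 within these pairs and 13.7 to 23.7 across them. With the counts of each pair summed, so that a group had 2 values, 118 genes were higher and 300 lower. The first 2 principal components of the 8 samples took 35.3% and 17.1% of the variance. The first separated the genotypes and the second separated replicates 1 and 2 from replicates 3 and 4 in both genotypes; the labels name no batch. Within replicates 1 and 2 alone 1588 genes were higher and 1663 lower, within replicates 3 and 4 alone 635 and 701, and with a model term for the pairs 892 and 1011. The count with pairs summed is given beside the lists below, since it is the more careful reading if the pairs are repeated libraries of 1 source. The summed fit held no term for the difference between pairs. The model with that term, which treats the 4 samples of a group as separate, kept all 1411 calls.

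The targeted gene itself, Ern1, was looked at first (ENSMUSG00000020715, chromosome 11, 106394650 to 106487852, minus strand, GRCm38). Its level was 42.3, 43.3, 40.5 and 40.2 CPM in WT replicates 1 to 4 and 53.3, 54.6, 48.2 and 49.6 CPM in KO-labelled replicates 1 to 4. All KO-labelled samples lay above all WT samples, and the difference was 0.31 ± 0.05 (adjusted p = 6.99e-05; 0.0566 with pairs summed). The count sums all exons of Ern1, deleted or not, and is therefore no check of the knockout. Xbp1 mRNA in total was 228 to 262 CPM in WT and 242 to 268 CPM in KO-labelled cells, with overlapping ranges and a difference of 0.08 ± 0.05 that did not pass (adjusted p = 0.361). Spliced and unspliced Xbp1 are not separated in these counts.

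Among the ER stress sensors and their relatives, the mRNA of 6 of 17 measured genes was lower in KO-labelled cells, and Ern1 was the 1 gene called higher; with pairs summed 4 were lower. The fall of Creb3l2 was the largest of the list. Creb3l2 (also BBF2H7; chromosome 6, 37327255 to 37442146, minus strand) encodes a membrane-held factor that is cut in the Golgi, as ATF6 is, and drives COPII genes in cells that secrete matrix. It stood at 20.04, 19.4, 16.2 and 16.8 CPM in WT and at 2.54, 2.10, 1.49 and 1.83 CPM in KO-labelled samples, with no overlap. The difference was -3.18 ± 0.10, or 9.05-fold lower (adjusted p = 2.98e-17, and 6.29e-07 with pairs summed). Eif2ak3, which encodes PERK, was 23.6 to 25.9 CPM in WT and 17.3 to 19.8 CPM in KO-labelled cells (-0.41 ± 0.05, adjusted p = 5e-06). Atf6 fell by 0.37 ± 0.04 and its paralog Atf6b by 0.35 ± 0.05 on the log2 scale (adjusted p = 9.86e-07 and 4.11e-06). The differences of Map3k5, the kinase ASK1 that acts downstream of IRE1α and TRAF2 (-0.48 ± 0.11), and of the ATF6 relative Creb3 (-0.18 ± 0.04) lost their calls with pairs summed (adjusted p = 0.175 and 0.291).

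**Figure D1:**
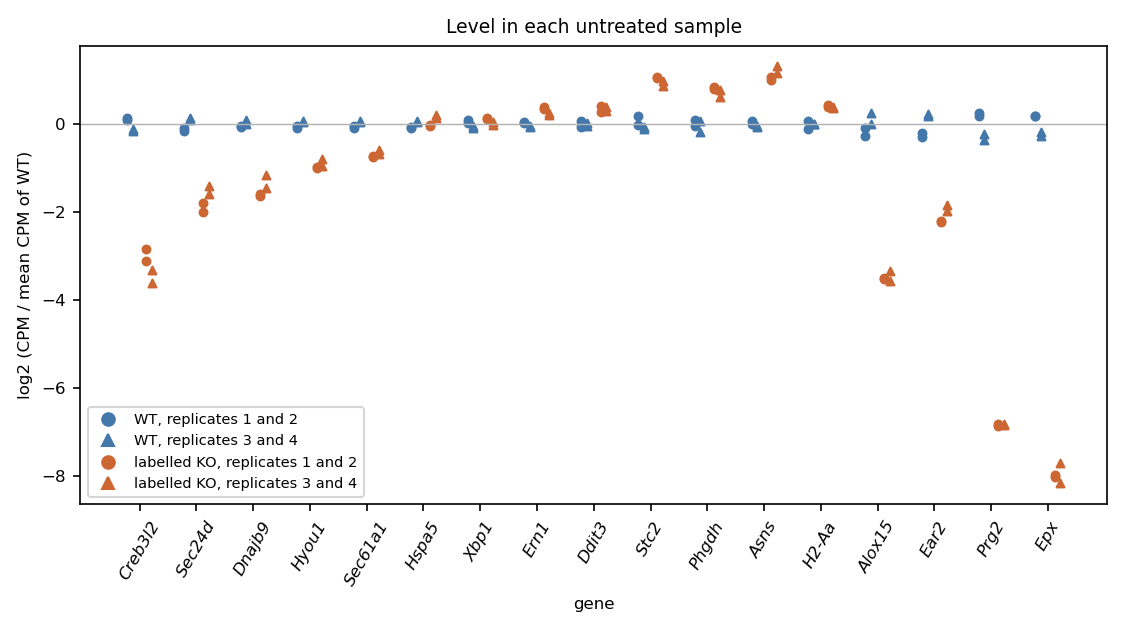
Level of 17 genes in each untreated sample. The y axis is log2 of the CPM over the mean CPM of the 4 WT samples, circles are replicates 1 and 2, triangles replicates 3 and 4, blue WT and orange labelled KO; XBP1s targets such as Sec24d and eosinophil genes such as Epx lie below WT in all 4 KO-labelled samples, while Hspa5 and Xbp1 overlap.

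Genes known as direct or likely targets of XBP1s were lower as a group. Of 61 such genes, all tested, 54 were called lower and none higher, with a median of -0.48 against 0.004 over all genes. The list was drawn up with earlier results of these data known. It leaves out the chaperone genes Hspa5 and Hsp90b1, which were not called, so the count may be set in part by the choice of members. With pairs summed 39 were lower and none higher. Many of these genes are counted again in the ER lists below, so the counts are not separate results. The ER machinery is described next in the order in which a secreted protein meets it.

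Entry into the ER was the first step. The Sec61 channel admits nascent chains, the signal recognition particle (SRP) brings them there, and the TRAP complex (Ssr1 to Ssr4) sits beside the channel. Of 21 measured genes 15 were lower and none higher (9 with pairs summed), with a median of -0.26. Sec61a1, the channel's pore subunit (chromosome 6, 88503579 to 88518905, minus strand), was 189, 182, 203 and 202 CPM in WT and 116, 119, 122 and 129 CPM in KO-labelled samples. Every KO-labelled sample was below every WT sample, and the difference was -0.68 ± 0.04 (adjusted p = 2.78e-11). The small subunits Sec61b (-0.58 ± 0.06) and Sec61g (-0.72 ± 0.13) fell as well, as did Sec63, which couples the channel to the chaperone BiP (-0.45 ± 0.04). In TRAP, Ssr3 had -0.43 ± 0.06 and Ssr1 -0.41 ± 0.05.

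Signal peptidase removes the signal sequence and oligosaccharyltransferase attaches N-glycans. Of the 32 measured genes of these complexes and of glycan synthesis and trimming 24 were lower and none higher (14 with pairs summed), with a median of -0.28. Spcs2, a signal peptidase subunit (chromosome 7, 99837569 to 99863462, minus strand), was 135 to 145 CPM in WT and 77.0 to 82.6 CPM in KO-labelled cells, a difference of -0.81 ± 0.04 (adjusted p = 2.62e-13). Stt3a, the catalytic subunit that works on chains still entering the ER, had -0.73 ± 0.04 and Rpn1, a shared subunit of the transferase, -0.57 ± 0.05. Mogs, the glucosidase that trims the first glucose of the glycan (-0.63 ± 0.06), and Gfpt1, the enzyme at the entry of the hexosamine pathway that supplies the sugar donor (-0.67 ± 0.04), were lower too.

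Among ER chaperones and co-chaperones 13 of 23 were lower and 1 higher (9 and 0 with pairs summed), with a median of -0.32. Dnajb9, the co-chaperone ERdj4 that BiP uses to hold IRE1α inactive (chromosome 12, 44205559 to 44210326, minus strand), was 23.8, 23.5, 26.2 and 24.7 CPM in WT and 8.11, 7.90, 10.96 and 8.96 CPM in KO-labelled samples. The groups were well apart, with a difference of -1.45 ± 0.08 (adjusted p = 3.23e-12). Hyou1, a large chaperone that exchanges nucleotide on BiP, was 168 to 187 CPM in WT and 89.3 to 103 CPM in KO-labelled cells (-0.93 ± 0.05). Creld2 (-0.93 ± 0.04), Manf (-0.71 ± 0.06), Dnajc3 (-0.67 ± 0.06) and Sdf2l1 (-0.63 ± 0.07), all known to be induced by ER stress, were lower. The 3 most abundant chaperones did not pass. Hspa5, which encodes BiP, was 872 to 972 CPM in WT and 894 to 1064 CPM in KO-labelled cells (0.08 ± 0.07, adjusted p = 0.572). Hsp90b1, encoding GRP94, had 0.05 ± 0.05 and the lectin chaperone Calr -0.09 ± 0.04 (adjusted p = 0.693 and 0.246). The gene called higher was Creld1, the paralog of Creld2 (0.23 ± 0.05), a call that ended with pairs summed (adjusted p = 0.127).

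Of 20 protein disulfide isomerases and oxidases, which form and shuffle disulfide bonds, 9 were lower and none higher (8 with pairs summed). Pdia5 (chromosome 16, 35397312 to 35490873, minus strand) fell furthest of all the ER genes listed. It was 6.22, 6.10, 6.10 and 6.61 CPM in WT and 0.512, 0.550, 0.249 and 0.317 CPM in KO-labelled samples, 15.2-fold lower (-3.92 ± 0.19, adjusted p = 8.44e-14). Txndc5 had -1.08 ± 0.06, Txndc11 -0.95 ± 0.06, Pdia6 -0.42 ± 0.04 and the abundant isomerase P4hb -0.65 ± 0.05, from 1269 to 1421 CPM in WT to 810 to 935 CPM. ER-associated degradation, which returns misfolded proteins to the cytosol, had 12 of 31 genes lower and none higher (6 with pairs summed, 7 without KO replicate 2), with a median of -0.12. Among them were Selenos, which holds the segregase p97 at the ER (-0.70 ± 0.06), the ubiquitin ligase Syvn1, also called HRD1 (-0.52 ± 0.06), and the mannosidase-like proteins Edem2 (-0.48 ± 0.04) and Edem1 (-0.36 ± 0.04).

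Exit from the ER in COPII vesicles and retrieval from the Golgi in COPI vesicles form the last step. Of 44 genes 33 were lower and none higher (19 with pairs summed), with a median of -0.28. Sec24d, a cargo adaptor of the COPII coat (chromosome 3, 123267455 to 123365641, plus strand), was 34.5, 32.9, 39.2 and 40.4 CPM in WT and 9.28, 10.6, 12.2 and 13.9 CPM in KO-labelled samples. Its difference was -1.67 ± 0.09 (adjusted p = 1.23e-12), against -0.33 ± 0.03 for another adaptor of the coat, Sec24c. Of the KDEL receptors, which return ER proteins that escape, the low-abundance Kdelr3 fell from 2.48 to 2.63 CPM in WT to 0.649 to 1.06 CPM (-1.46 ± 0.14), and Kdelr2, at 60.7 to 64.7 CPM in WT, had -0.45 ± 0.04. The cargo receptors Lman1 (-0.73 ± 0.04) and Surf4 (-0.61 ± 0.04) were lower. Copa, of the COPI coat, had -0.33 ± 0.05, a call that ended with pairs summed (adjusted p = 0.0671). Nucb2, a calcium-binding protein of the secretory pathway, was among the 20 largest falls, with 39.6 to 43.4 CPM in WT and 15.8 to 18.4 CPM in KO-labelled cells (-1.28 ± 0.06, adjusted p = 2.92e-14).

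**Figure D2:**
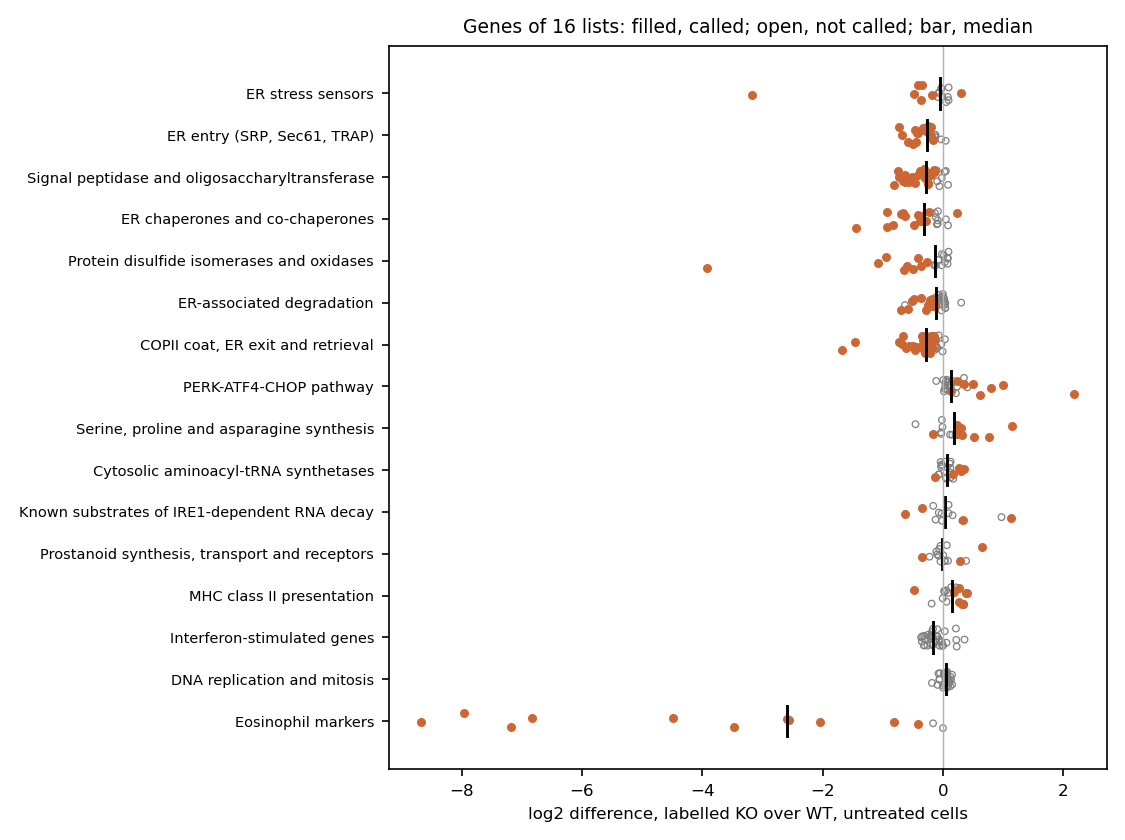
Members of 16 gene lists in untreated cells. Each point is a gene, the x axis is its log2 difference of labelled KO over WT, filled points were called and open points were not, and the black bar is the list's median; the 7 ER lists have medians below 0 (-0.06 for the sensors and -0.12 to -0.32 for the others), the PERK-ATF4-CHOP genes have a median of 0.12, and the eosinophil markers have a median of -2.59.

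The promoters of these genes were searched for 4 short motifs, on both strands, from 250 bases before to 50 bases after the start, in RefSeq sequence of GRCm38.p6. Of the 14188 tested genes 10444 had a promoter in that table. UPRE, written TGACGTGG, is bound by XBP1s. It was present for 21 of 630 genes called lower (3.33%), 3 of 458 called higher (0.655%) and 106 of all 10444 (1.01%). Of the 39 COPII and retrieval genes with a promoter 7 held it (17.9%), and of 47 XBP1s targets 5 did (10.6%). None of 16 ER entry genes, 26 signal peptidase and glycosylation genes and 19 chaperones held it, although members of these lists fell. Of all 106 genes with UPRE 21 were called lower and 3 higher, so most genes that hold it were not called. ERSE, written CCAAT, 9 further bases and CCACG, is read by ATF6 and XBP1s together with NF-Y; it was found for 17 genes in all (0.163%), of which 5 were called lower (Creld2, Dnajc3, Syvn1, Pdia6 and Alg12) and none higher. ERSE-II, written ATTGG, 1 further base and CCACG, was found for 8 genes, of which 3 were called lower (Nucb1, Dnajb11 and Krtcap2) and none higher. These matches are a description of the letters and show no binding.

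Promoter stretches of genes that fell are set beside those of 2 genes that hold the same motif and were not called, since the same letters occur in genes that were called and in genes that were not. Each is written 5′ to 3′ on the gene's strand, with the motif in capitals and 25 bases on each side.
Sec24d, UPRE, chr3:123267445-123267502, plus strand, difference -1.67: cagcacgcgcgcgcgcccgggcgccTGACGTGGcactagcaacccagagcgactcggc
Kdelr3, UPRE read on the opposite strand, chr15:79516353-79516410, plus strand, difference -1.46: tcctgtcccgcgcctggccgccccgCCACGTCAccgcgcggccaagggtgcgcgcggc
Txndc11, UPRE, chr16:11134602-11134659, minus strand, difference -0.95: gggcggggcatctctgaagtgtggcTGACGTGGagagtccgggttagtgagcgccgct
Creld2, ERSE read on the opposite strand, chr15:88819495-88819563, plus strand, difference -0.93: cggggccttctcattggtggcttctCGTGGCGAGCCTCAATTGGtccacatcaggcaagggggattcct
Syvn1, ERSE, chr19:6046507-6046575, plus strand, difference -0.52: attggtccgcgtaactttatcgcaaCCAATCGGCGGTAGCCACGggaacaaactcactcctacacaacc
Hspa5, ERSE, chr2:34772000-34772068, plus strand, difference 0.08, not called: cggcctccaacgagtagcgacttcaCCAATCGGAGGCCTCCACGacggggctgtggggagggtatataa
Hsp90b1, ERSE, chr10:86705613-86705681, minus strand, difference 0.05, not called: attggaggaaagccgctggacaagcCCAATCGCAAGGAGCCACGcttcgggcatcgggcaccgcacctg
The motif began 26 bases before the start in Sec24d, 30 in Kdelr3, 102 in Txndc11, 126 in Creld2, 44 in Syvn1, 65 in Hspa5 and 212 in Hsp90b1. The full ERSE is thus present both in genes that fell and in the 2 chaperone genes whose levels overlapped between genotypes.

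Of 14 genes known as ATF6 targets 7 were lower and none higher (5 with pairs summed), and each of the 7 is also a known XBP1s target (Hyou1, Creld2, Manf, Sdf2l1, Pdia6, Dnajb11 and Pdia4).

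Part of the genes downstream of PERK and ATF4 went the other way. Of 27 measured genes of the PERK-ATF4-CHOP list 8 were called higher and none lower (5 with pairs summed), with a median of 0.12. The other 19 were not called. Of 17 amino acid transporters only 1 was called higher, and none with pairs summed. The mRNA of Atf4 itself was 148 to 152 CPM in WT and 145 to 159 CPM in KO-labelled cells (0.00 ± 0.04, adjusted p = 0.968); ATF4 is controlled mainly at translation, which these counts do not show. Stc2, a secreted glycoprotein known to be induced through ATF4 (chromosome 11, 31357307 to 31370074, minus strand), was 6.26, 7.20, 6.04 and 5.88 CPM in WT and 13.4, 13.1, 12.6 and 11.6 CPM in KO-labelled samples. The KO-labelled samples were all higher, by 1.00 ± 0.08 (adjusted p = 2.53e-09). Trib3, a pseudokinase that restrains ATF4 and CHOP, rose by 0.61 ± 0.07, the factor Atf5 by 0.50 ± 0.05 and Ddit3 by 0.35 ± 0.06. Cth, which makes cysteine, was scarce in both groups, at 0.0862 to 0.248 CPM in WT and 0.497 to 0.860 CPM in KO-labelled cells (2.18 ± 0.32, adjusted p = 2.34e-05). The calls of Vldlr, a lipoprotein receptor (0.80 ± 0.14), and of Atf3 (0.23 ± 0.05) ended with pairs summed (adjusted p = 0.0652 and 0.154).

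Of 16 enzymes of serine, proline and asparagine synthesis 7 were higher and 1 lower (4 and 0 with pairs summed), and of 21 cytosolic aminoacyl-tRNA synthetases 4 were higher and 1 lower (2 and 0). The 1 lower call was lost without any of WT replicates 1, 3 and 4 or KO replicates 1, 2 and 3 in the first list, and without any library but KO replicate 4 in the second. Asns, asparagine synthetase (chromosome 6, 7675169 to 7693254, minus strand), was 11.4, 11.9, 10.9 and 11.1 CPM in WT and 22.7, 23.8, 25.4 and 28.3 CPM in KO-labelled samples. The lowest KO-labelled sample was far above the highest WT sample, and the difference was 1.14 ± 0.07 (adjusted p = 4.14e-12). Phgdh, which opens the serine pathway, rose by 0.77 ± 0.08 and Pck2, the mitochondrial carboxykinase, by 0.51 ± 0.09. Psat1, the next serine enzyme, had 0.23 ± 0.05, with an adjusted p of 0.00107 that became 0.104 with pairs summed. Of the synthetases, Aars rose by 0.35 ± 0.05, and Yars had 0.26 ± 0.06 with a call that ended with pairs summed (adjusted p = 0.0661). The motif TTGCATCA, part of the site that ATF4 forms with C/EBP factors, stood in the promoters of 13 of 458 genes called higher (2.84%), 3 of 630 called lower (0.476%) and 77 of 10444 tested genes (0.737%). Of the 77 genes with this motif 13 were called higher and 3 lower, so most genes that hold it were not called. The motif is shown for Vldlr, which held it 200 bases before the start, in the stretch described as above.
Vldlr, chr19:27216795-27216852, plus strand, difference 0.80: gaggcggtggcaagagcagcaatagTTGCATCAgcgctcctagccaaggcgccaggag

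Known substrates of IRE1-dependent decay showed no common direction. Of 14 measured genes 2 were higher, 2 lower and 10 not called, with a median of 0.04. With pairs summed 1 was higher and none lower, and without KO replicate 2 none was lower. With replicates 1 and 2 alone 6 were higher and 3 lower, Bloc1s1 among the higher. With replicates 3 and 4 alone there were 2 and 2. Bloc1s1, the substrate used most often as a readout, was 19.7 to 22.4 CPM in WT and 20.2 to 24.5 CPM in KO-labelled cells (0.09 ± 0.05, adjusted p = 0.323). Scara3, a scavenger receptor, was 1.07 to 1.57 CPM in WT and 2.24 to 3.11 CPM in KO-labelled cells (1.13 ± 0.17). Gm2a, a lysosomal lipid activator, had 0.34 ± 0.05, with an adjusted p of 0.0593 with pairs summed. Hgsnat, a lysosomal acetyltransferase, had -0.34 ± 0.10 and Pdgfrb, a growth factor receptor at under 1 CPM, -0.63 ± 0.15, with adjusted p values of 0.44 and 0.14 with pairs summed. The call of Pdgfrb also ended without KO replicate 2, and that of Hgsnat without WT replicate 3 or 4 or without KO replicate 1 or 2.

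The deepest falls were in genes that mark eosinophils, granulocytes that can arise in bone marrow cultures. Of 13 measured eosinophil markers 11 were lower and none higher (10 with pairs summed), with a median of -2.59. Epx, eosinophil peroxidase, was 213, 213, 167 and 156 CPM in WT and 0.717, 0.747, 0.904 and 0.652 CPM in KO-labelled samples, a difference of -7.96 ± 0.16 (adjusted p = 5.51e-22). Prg2, the major basic protein, was 681, 714, 514 and 467 CPM in WT and 5.12 to 5.29 CPM in KO-labelled samples. WT replicates 1 and 2 held more Epx and Prg2 than replicates 3 and 4. The ribonucleases Ear2 (63.8, 67.3, 91.3 and 87.8 CPM in WT) and Ear6 (27.6, 27.6, 39.3 and 34.1 CPM) and the lipoxygenase Alox15 (14.3, 12.6, 18.2 and 15.3 CPM) did not show that order in WT. In KO-labelled samples Ear2 was at 16.6 to 21.9 CPM, Ear6 at 4.66 to 6.03 CPM and Alox15 at 1.27 to 1.49 CPM. The Ear genes are near copies whose reads can be split between them, so single members are uncertain.

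Other markers of that lineage fell by various amounts. The eotaxin receptor Ccr3 had -4.49 ± 0.19, Prg3, a homolog of the major basic protein, -7.18 ± 0.21, Ear1 -8.67 ± 0.14, and Gata1, a factor of eosinophil, erythroid and mast cell development, -2.56 ± 0.29. Il1rl1, the interleukin 33 receptor, had -0.81 ± 0.08. Cebpe, a granulocyte factor, had -0.42 ± 0.08, a call that ended with pairs summed (adjusted p = 0.0732). Siglecf, a surface marker that macrophages also carry, was 24.1 to 26.7 CPM in WT and 21.2 to 24.6 CPM in KO-labelled cells and did not pass (-0.17 ± 0.06, adjusted p = 0.0922). The levels of the 13 markers summed to 1930 to 2151 CPM in WT and 1045 to 1159 CPM in KO-labelled samples. Most of the sum left in KO-labelled samples was Csf2rb2, a cytokine receptor subunit that other myeloid cells also express. In bulk samples fewer cells of a type and less RNA per cell cannot be told apart. These markers fell in the same samples as the ER genes above, and their part in the ER differences was not tested.

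Markers of other granulocytes were mixed. Of 11 mast cell and basophil genes 5 were lower and 1 higher (3 and 0 with pairs summed; 3 lower without WT or KO replicate 1 or 2, and 2 higher without WT or KO replicate 1). Differences in this list ran from -2.37 to 1.77, and Gata2, Hdc and Il4, given here, were among the lower genes. Gata2, a factor of these lineages, was 13.9 to 16.4 CPM in WT and 7.05 to 8.03 CPM in KO-labelled cells (-0.997 ± 0.06, adjusted p = 2.78e-11). Hdc, which makes histamine, had -1.18 ± 0.15. The type 2 cytokines Il4, at 0.421 to 0.841 CPM in WT, and Il13, at 0.230 to 0.496 CPM, had -2.37 ± 0.31 and -3.74 ± 0.52. Also among the 20 largest falls were Spns3, a sphingolipid transporter relative (-2.35 ± 0.11), Slc18a2, the vesicular monoamine transporter (-1.52 ± 0.18), and the platelet and progenitor integrin Itga2b (-1.31 ± 0.14). Of 25 neutrophil markers 7 were lower and 6 higher (2 and 4 with pairs summed). Ly6g was lower, at 4.22 to 5.81 CPM in WT and 0.895 to 1.93 CPM in KO-labelled cells (-1.88 ± 0.19), and the granule gene Ltf had -0.63 ± 0.11, with an adjusted p of 0.0773 with pairs summed. Stefins, inhibitors of cysteine proteases that sit in a cluster of near copies on chromosome 16, were higher: Stfa1 (1.48 ± 0.15), BC100530 (1.23 ± 0.13), Stfa2 (0.90 ± 0.13) and Stfa3 (0.90 ± 0.11). Stfa2l1 had 0.85 ± 0.19 with a call that ended with pairs summed (adjusted p = 0.202). Reads of these copies may have been shared between them in counting, and the part of granulocyte makeup in the other results was not tested.

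Genes that define dendritic cells and macrophages were called in both directions. Of 21 conventional dendritic cell markers 5 were higher and 4 lower (1 and 2 with pairs summed; 2 lower without WT replicate 2 or 4 or KO replicate 1 or 2), with a median of -0.03. Differences in this list ran from -1.14 to 0.47, and Flt3 and Cd24a, given here, were among the lower genes. Flt3, the receptor of the dendritic cell growth factor FLT3L, was 1.90 to 2.21 CPM in WT and 0.881 to 0.972 CPM in KO-labelled cells (-1.14 ± 0.13, adjusted p = 3.62e-07). Cd24a fell by 0.60 ± 0.05 on the log2 scale. Of 25 macrophage and monocyte markers 4 were higher and 5 lower (3 and 3 with pairs summed; 7 higher without WT replicate 4). The lectin Clec4f, absent from WT, was among the higher ones and is described below. The scavenger receptor Marco was among the lower ones (-0.76 ± 0.06). Fscn1, the actin bundler of mature dendritic cells, was 49.7 to 60.3 CPM in WT and 32.2 to 35.8 CPM in KO-labelled cells (-0.71 ± 0.07). It was the 1 lower call among 21 genes of costimulation and dendritic cell maturation, of which 5 were called higher (0 higher and 1 lower with pairs summed).

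Part of the MHC class II genes, which present antigen to CD4+ T cells, rose. Of 18 genes 8 were called higher and 1 lower (5 and 0 with pairs summed; none lower without WT replicate 2 or KO replicate 1), with a median of 0.16. H2-Aa, an α chain, was 877, 987, 947 and 944 CPM in WT and 1227, 1264, 1224 and 1215 CPM in KO-labelled samples, with no overlap (0.39 ± 0.05, adjusted p = 3.39e-06). The chains H2-Ab1 (0.38 ± 0.04) and H2-Eb1 (0.34 ± 0.05), the invariant chain Cd74 (0.33 ± 0.04) and Ciita, the transactivator of these genes (0.31 ± 0.04), rose by similar amounts. Of 23 chemokines 7 were lower and 1 higher, and with pairs summed 1 and 0; without WT replicate 1 or 2 there were 4 lower. Ccl24, an eosinophil attractant, kept its call (-0.72 ± 0.08, adjusted p = 0.00515 with pairs summed). Ccl2, a monocyte attractant, was 175 to 246 CPM in WT and 113 to 138 CPM in KO-labelled cells (-0.76 ± 0.13), and Ccl7 had -1.10 ± 0.20; both calls ended with pairs summed (adjusted p = 0.0574 and 0.0616). Ccl17, the 1 chemokine called higher (0.43 ± 0.08), also lost its call that way (adjusted p = 0.0952).

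No member was called in the edgeR test in 3 lists: 35 interferon-stimulated genes, 29 genes of DNA replication and mitosis and 24 genes of survival and death. At an unadjusted p under 0.05 there were 1 higher and 4 lower among the first, 2 and 0 among the second and 5 and 0 among the third. DESeq2 called 0 higher and 1 lower, 0 and 0, and 2 and 0. With a model term for the pairs edgeR called 1 and 1, 1 and 0, and 4 and 0. The interferon-stimulated genes had a median of -0.17 and depended on the samples: 2 were higher and 18 lower with replicates 1 and 2 alone, 4 higher and none lower with replicates 3 and 4 alone, and 10 lower without KO replicate 4.

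The series title names prostaglandin synthesis, and 16 genes of prostanoid synthesis, transport and reception were measured. In untreated cells 2 were higher and 1 lower (1 and 0 with pairs summed), with a median of -0.02. Ptgs2, the inducible cyclooxygenase, was 16.3, 15.5, 13.7 and 11.5 CPM in WT and 12.2, 11.1, 16.9 and 14.3 CPM in KO-labelled samples. The ranges overlapped, and the order of the genotypes was opposite in replicates 1 and 2 and in replicates 3 and 4 (-0.06 ± 0.11, adjusted p = 0.825). Ptgs1, the constitutive cyclooxygenase (0.06 ± 0.06), and Pla2g4a, which frees arachidonic acid (0.02 ± 0.06), did not pass. Ptges, the inducible prostaglandin E synthase, was 13.0 to 16.04 CPM in WT and 10.5 to 11.7 CPM in KO-labelled cells (-0.36 ± 0.08, adjusted p = 0.00268, and 0.164 with pairs summed). The prostacyclin receptor Ptgir rose by 0.28 ± 0.04. Ptgis, prostacyclin synthase, had 0.65 ± 0.19 at 0.841 to 1.96 CPM, a call that ended with pairs summed (adjusted p = 0.272) and without WT replicate 1 or 2 or KO replicate 4. Of the 12 genes of lipoxygenases and leukotrienes 3 were lower and 1 higher (1 and 0 with pairs summed). The higher call was lost without WT replicate 1, 3 or 4 or KO replicate 1, 2 or 3. Alox15 is described above, and Alox5, the 5-lipoxygenase, had -0.34 ± 0.09 (adjusted p = 0.00925, and 0.272 with pairs summed).

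A few genes were present in 1 genotype and nearly absent in the other, a pattern looked for after the values were seen. With at least 5 counts in each sample of 1 group and at most 3 counts over the whole other group, 3 genes were found in KO-labelled samples only and 6 in WT only. Bhlha15, also called MIST1, a factor of secretory cells and a known target of XBP1 (chromosome 5, 144190286 to 144194441, plus strand), had 24, 24, 21 and 37 counts in WT and 3 counts over all 4 KO-labelled samples, a ratio of WT to KO counts per library total of 36.8 (exact 95% counting interval 12.3 to 181; adjusted p = 1.86e-07). Complement C7 had 22 to 39 counts in each WT sample and none in KO-labelled samples (at least 44.1-fold lower, with 3 counts over the group as the floor), and the pepsinogen gene Pga5 8 to 13 counts and none (at least 14.9-fold lower). Igha, the immunoglobulin α heavy chain, had 121, 50, 40 and 12 counts in WT replicates 1 to 4 and 3 in all KO-labelled samples (ratio 77.4, interval 26.1 to 378), so that the WT samples themselves differed widely. All 3 genes found in KO-labelled samples only lay on chromosome 6. Clec4f, a lectin known from Kupffer cells (83644542 to 83656187, minus strand), had 59, 64, 95 and 116 counts in KO-labelled samples and none in WT (at least 107-fold higher). The pseudogene Spr-ps1 had 15 to 39 counts (at least 34.9-fold higher) and Sva 8 to 13 counts (at least 13.1-fold higher). With zymosan and with LPS these 3 genes summed to 0 or 1 count in the 4 WT samples of each condition. In KO-labelled samples Clec4f had 1809 counts with zymosan and 2408 with LPS, Spr-ps1 41 and 14, and Sva 55 and 63.

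Chromosome 6 also held a larger share of called genes than the others. Of its 699 tested genes 111 were called (15.9%), 50 higher and 61 lower, against 7.38% to 11.7% on the other 19 chromosomes with at least 100 tested genes. Among the genes described here, Creb3l2, Eif2ak3, Asns, Sec61a1, Rpn1, Mogs, Gfpt1, Edem1, Creld1, Gata2, Alox5 and Cyp26b1 are on it. Without the 173 genes of 7 lists (ER machinery and XBP1s targets, but not the list of sensors) the share was 14.6%, against 7.05% to 10.9% elsewhere. A 10 Mb stretch of chromosome 6 that holds Clec4f, Sec61a1, Gata2 and Cyp26b1 was chosen after the values were seen. There the share was 21 of 93 genes (22.6%), or 16 of 87 (18.4%) without those 7 lists. Ern1 is on chromosome 11, where 28 of 276 other genes within 10 Mb of it were called (10.1%). Within 1 Mb of it 28 other genes were tested and 4 called (14.3%). Of all windows of 1 Mb, 2 held 3 calls over 2-fold. They were at 83 Mb on chromosome 6 (7 of 28 tested genes called) and at 44 Mb on chromosome 7 (8 of 32). These shares carry no test, since neighbouring genes are not independent. The labels give no strain or breeding, so the loss of IRE1α and an inherited difference of the mice cannot be told apart. This holds for genes on chromosome 6, Creb3l2, Sec61a1, Eif2ak3, Asns and Clec4f among them, and the labels do not limit it to that chromosome.

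**Figure D3:**
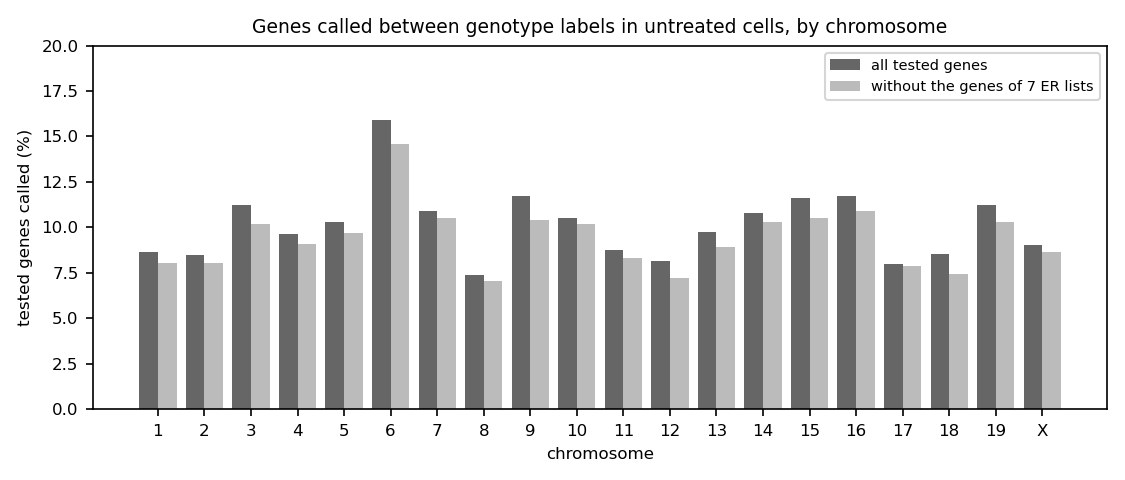
Share of tested genes called between genotypes in untreated cells, by chromosome. Bars start at 0, dark bars cover all tested genes and light bars leave out the genes of 7 lists (ER machinery and XBP1s targets, not the sensors). Chromosome 6 stands highest in both, at 15.9% and 14.6%.

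Among the 20 largest rises, Rbp4, a retinol carrier, was 1.08, 1.45, 3.28 and 3.10 CPM in WT and 7.47, 8.35, 9.65 and 9.82 CPM in KO-labelled samples (1.98 ± 0.27, adjusted p = 1.13e-05). Its levels in WT differed by replicate pair, as did those of Mcoln3, a lysosomal channel (1.31 to 2.85 CPM in WT, 4.53 to 5.57 CPM in KO-labelled cells; 1.31 ± 0.20). Timp3, a metalloproteinase inhibitor, was 2.11 to 3.38 CPM in WT and 7.09 to 7.81 CPM in KO-labelled cells (1.48 ± 0.10). Cyp26b1, which breaks down retinoic acid, was 4.34 to 5.56 CPM in WT and 10.9 to 12.3 CPM in KO-labelled cells (1.23 ± 0.09, adjusted p = 9.14e-11).

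The untreated difference was then set beside that in stimulated cells, from other samples of the same series. Of the 800 genes lower in untreated KO-labelled cells 598 were also called lower with zymosan (74.8%, and 36.8% of the 1624 lower with zymosan) and 574 with LPS (71.8%, and 22.2% of 2583). Of the 611 higher genes 376 were called higher with zymosan (61.5%, and 24.9% of 1509) and 331 with LPS (54.2%, and 14.9% of 2218). Opposite calls were 2 and 18 among the lower and 4 and 23 among the higher genes. The interaction test asks whether the genotype difference itself changed. It was called with zymosan for 30 of the 800 lower and 40 of the 611 higher genes, and with LPS for 152 and 140. Dnajb9 had -1.45 in untreated cells, -2.19 with zymosan (interaction adjusted p = 0.00285) and -2.48 with LPS (2.08e-05). Hspa5, at 0.08 in untreated cells, had -0.25 with LPS (interaction adjusted p = 0.0307). Asns went from 1.14 to 1.47 with LPS (interaction adjusted p = 0.0356). The rise of Cyp26b1 was smaller in stimulated cells, with 0.43 and 0.21 (interaction adjusted p = 0.000976 and 2.26e-05), and Ptgs1 and Ptgs2, not called in untreated cells, differed by 1.05 and -0.73 with LPS (interaction adjusted p = 5.81e-07 and 0.0054).

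**Figure D4:**
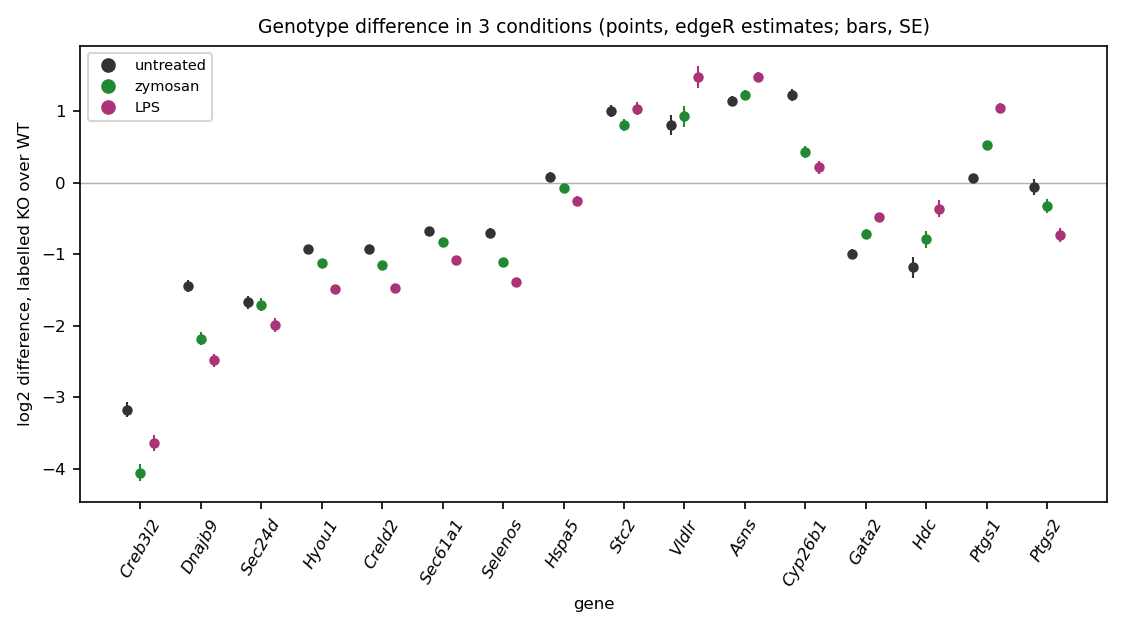
Genotype difference of 16 genes in untreated, zymosan-treated and LPS-treated cells. Points are log2 differences of labelled KO over WT from the edgeR model and bars are SE (n = 4 per group); the ER genes Dnajb9, Hyou1, Creld2 and Selenos lie lower with LPS than in untreated cells, while Cyp26b1, Gata2 and Hdc lie nearer to 0.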

How the data were processed

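RNA sequencing of bone marrow-derived dendritic cells was analysed from the deposited table of whole-number counts per gene and sample, used unchanged. The submitters' processing notes name Bowtie2, RSEM 1.2.31, DESeq2 and build mm10, with no role or order; if RSEM made the counts, reads that fit several genes were shared out between near copies. Symbols and positions came from the GENCODE mouse annotation of GRCm38, which named 37570 of 38887 identifiers (96.6%).

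In edgeR 4.0.16 (R 4.3.3), genes were filtered with filterByExpr and scaled by TMM. All 24 samples, in 6 groups, entered 1 quasi-likelihood model. The contrast was KO minus WT in untreated cells, adjusted by Benjamini-Hochberg over 14188 genes. An SE is the log2 difference over the root of the F statistic. Tested on simulated counts of this comparison with 14101 genes, the model recovered 191 of 200 planted changes with 6 false calls. Each simulated library was drawn independently, without the replicate pairs seen in the data, and changes were planted only in well-counted genes. The simulation therefore does not measure false calls that such pairs could bring.

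The comparison, the gene lists and the tests were chosen with earlier results of these data known. Genes were named as sensors, as prostanoid genes, as called list members with large differences, or as 1 of the 20 largest rises or falls with at least 5 CPM and no overlap. Outside that rule, and chosen after their values were seen, are Hspa5, Hsp90b1, Calr, Creld1, Sec24c, Copa, Bhlha15, Atf4, Psat1, Siglecf, Ltf, Stfa2l1, Spr-ps1, Sva, Igha, C7, Pga5, Alg12, Nucb1 and Krtcap2. Csf2rb2 is also outside it, and is not among the genes checked for samples apart or under the alternatives. Alternatives were DESeq2 1.42.0, its size factors, no filter, the 8 untreated samples alone, a replicate block, replicate pairs summed, each pair alone, a term for the pairs, and leaving out each library. Intervals and floors cover counting error only.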

Additional observations from a re-analysis of the deposited data

Results flagged for a closer look

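Among the genes described, 1 sample stood apart from the other 3 of its group in 8 of 252 gene and group combinations; its gap to the nearest of the others, given below as a ratio to the group's range, passed Dixon's 95% critical value. Chance alone gives about 1 in 20. Atf6b was low in WT replicate 3, at 53.8 CPM with the nearest other sample at 56.8 CPM (ratio 0.877). Ssr3 was high in WT replicate 3, at 383 CPM with the nearest other sample at 368 CPM (ratio 0.898). Manf was high in KO-labelled replicate 1, at 72.2 CPM with the nearest other sample at 67.3 CPM (ratio 0.884). Trib3 was low in WT replicate 1, at 8.36 CPM with the nearest other sample at 9.29 CPM (ratio 0.907). Pck2 was high in WT replicate 2, at 11.8 CPM with the nearest other sample at 10.5 CPM (ratio 0.862). Scara3 was high in WT replicate 2, at 1.57 CPM with the nearest other sample at 1.13 CPM (ratio 0.889). Ear1 was high in WT replicate 3, at 54.7 CPM with the nearest other sample at 47.1 CPM (ratio 0.873). Pla2g4a was high in WT replicate 3, at 53.3 CPM with the nearest other sample at 50.3 CPM (ratio 0.972). 

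The genotype difference itself differed between conditions, by the interaction test in edgeR (Benjamini-Hochberg adjusted p under 0.05), for 11 of the genes with zymosan and 39 with LPS. Values are the stimulated minus the untreated log2 difference, both against the same 8 untreated samples. With zymosan the difference was more negative for Creb3l2 (-0.87), Spcs2 (-0.22), Dnajb9 (-0.74), Creld2 (-0.23), Manf (-0.31), Selenos (-0.41), Trib3 (-0.36), Il1rl1 (-0.59), Pla2g4a (-0.35) and Cyp26b1 (-0.80), and more positive for Ptgs1 (0.46). With LPS it was more negative for the ER genes and Atf6, namely Atf6 (-0.20), Sec61a1 (-0.40), Spcs2 (-0.27), Stt3a (-0.20), Rpn1 (-0.23), Dnajb9 (-1.03), Hyou1 (-0.56), Creld2 (-0.54), Manf (-0.47), Dnajc3 (-0.34) and Sdf2l1 (-0.51). The same held for Dnajb11 (-0.35), Calr (-0.26), Txndc5 (-0.32), Txndc11 (-0.31), Pdia6 (-0.28), Selenos (-0.69), Syvn1 (-0.40), Edem2 (-0.29), Kdelr2 (-0.18), Surf4 (-0.25) and Nucb2 (-0.38). It was also more negative for Hspa5 (-0.34), Hsp90b1 (-0.24), Atf3 (-0.21), Alox15 (-0.77), Cd24a (-0.23), H2-Ab1 (-0.21), Cd74 (-0.20), Ptgir (-0.20), Ptgs2 (-0.67) and Cyp26b1 (-1.01). It was more positive for Vldlr (0.67), Asns (0.33), Yars (0.26), Hdc (0.82), Gata2 (0.51), Fscn1 (0.46) and Ptgs1 (0.99). The untreated difference of Cyp26b1, 1.23, was 0.43 with zymosan and 0.21 with LPS.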

How the results depend on the processing

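Of the 1411 called genes, none was called in the opposite direction under any of 17 alternatives that tested it. Of 116 called genes described here, 90 kept their call in all 17, Sva and Pga5 kept it in the 16 that tested them (the model of the 8 untreated samples left them out), and 24 lost it with replicate pairs summed. With pairs summed 118 genes were higher and 300 lower, and 407 of the calls remained. With replicates 1 and 2 alone the counts were 1588 and 1663, and 120 genes were over 2-fold higher. Leaving out 1 library gave 439 to 577 higher and 626 to 775 lower genes, and 40 to 58 and 104 to 118 by over 2-fold. DESeq2 called 668 and 843. Samples with the same number did not deviate together in all 4 pairs (correlations of 0.0197, 0.0206, 0.134 and 0.111), so the numbers were not used for pairing. With the replicate block 860 genes were higher and 981 lower, with 4 survival genes and 1 DNA replication gene called higher and 1 interferon-stimulated gene lower.

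The sign turned for 4 genes that were not called. The Atf4 log2 difference was -0.0275 with replicates 1 and 2 alone and ran from -0.0214 (without KO replicate 3) to 0.0252 (without KO replicate 2) with 1 library left out. The Bloc1s1 log2 difference was -0.0093 with replicates 3 and 4 alone (adjusted p = 0.955) and 0.19 with replicates 1 and 2 alone, where it was called higher (adjusted p = 0.0257). The Ptgs2 log2 difference was 0.311 with replicates 3 and 4 alone (adjusted p = 0.0786) and -0.44 with replicates 1 and 2 alone (adjusted p = 2.15e-05), and ran from -0.18 (without KO replicate 3) to 0.0244 (without KO replicate 2). The Pla2g4a log2 difference was -0.0149 with replicates 1 and 2 alone and ran from -0.0131 (without KO replicate 4) to 0.049 (without KO replicate 1). The cause was not tested. Depth limits the genes under 1 CPM most.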

Other observations

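Other lists in untreated cells are given by their counts, against 9.95% of all tested genes called. Of 9 plasmacytoid dendritic cell markers 3 were higher and none lower, also with pairs summed; without KO replicate 4, 1 was lower. Among 32 sterol and fatty acid synthesis genes there were 6 lower and none higher (1 lower with pairs summed, 3 without WT replicate 3). Of 28 cytokines 6 were lower and 1 higher (3 and 0 with pairs summed; none higher without WT replicate 1 or KO replicate 2). Of 21 genes of MHC class I presentation 1 was lower, a call absent with pairs summed and without WT replicate 1 or 2 or KO replicate 4, and 2 were lower without KO replicate 3. Of 21 genes of costimulation and dendritic cell maturation 5 were higher and 1 lower (0 and 1 with pairs summed). Of 17 amino acid transporters 1 was higher; none was with pairs summed or without WT replicate 1 or 2 or KO replicate 3, 3 were without WT replicate 4, and 1 was lower without KO replicate 4.

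Among markers of other lineages, 1 of 8 B cell and plasma cell genes was higher, also with pairs summed, and 1 was lower without KO replicate 1. Of 5 T and NK cell genes 2 were higher (none with pairs summed, and 1 without WT replicate 1, 2 or 4 or KO replicate 1 or 4). Of 6 erythroid and platelet genes 3 were lower (1 with pairs summed). Of 10 stroma genes 1 was higher and 4 lower (1 and 1 with pairs summed; 2 higher without WT replicate 3).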
